A study of Mus musculus with 2 samples.

Results

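The urea cycle turns the ammonia released by amino acid breakdown into urea, and its enzymes and carriers are among the abundant products of liver parenchymal cells. Transcripts of 8 genes of the cycle were followed in hepatocytes of undamaged liver (0 h) and of liver 48 h after partial hepatectomy (PHx48h): Cps1, Otc, Ass1, Asl, Arg1, Slc25a15, Slc25a13 and Nags. The genes were chosen by name, as the enzymes of the cycle, the enzyme that makes its activator and its 2 mitochondrial carriers, and they were 8 of the 27998 genes in the count tables. All 8 were detected in both libraries. All 8 passed the 50 CPM minimum in either library that was used for comparisons between time points, Nags through its 48 h level alone.

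In partial hepatectomy most lobes of the liver are cut away and those left behind regrow. The 0 h library came from healthy, undamaged liver and the PHx48h library from liver taken 48 h after the surgery, both from C57BL/6 mice of 10 to 12 weeks by the labels and with no engineered allele or drug in either group. The study's methods describe male animals on standard chow, collagenase perfusion, and single-cell RNA-Seq (scRNA-Seq) of part of the hepatocyte preparation of 1 mouse at each time point. With 1 library per time point no test between time points was possible, the 95% intervals given below cover counting error only, and a difference between time points cannot be told apart from a difference between these 2 mice or libraries.

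In the cycle, Nags makes N-acetylglutamate, the obligate activator of Cps1, and Cps1 joins ammonia and bicarbonate to carbamoyl phosphate inside mitochondria. Otc transfers the carbamoyl group to ornithine, which Slc25a15 carries into mitochondria in exchange for citrulline, and Slc25a13 (citrin) exports the aspartate that Ass1 joins to citrulline in the cytosol. Asl splits the resulting argininosuccinate into arginine and fumarate, and Arg1 releases urea and returns ornithine. In the liver lobule the cycle is known as a periportal function, upstream along the blood flow, whereas the cells around the central vein take up the remaining ammonia into glutamine through Glul.

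By the GENCODE M21 annotation of GRCm38, all 8 are protein-coding genes, on 8 chromosomes. The intervals are chr1:67123026-67231259 on the plus strand for Cps1, chrX:10252305-10321024 on the plus strand for Otc, chr2:31470207-31520672 on the plus strand for Ass1 and chr5:130011258-130029247 on the minus strand for Asl. Arg1 lies at chr10:24915221-24927484, Slc25a15 at chr8:22375551-22398597 and Slc25a13 at chr6:6041218-6217173, these on the minus strand, and Nags lies at chr11:102145513-102149477 on the plus strand. Promoter sequence from RefSeq (GRCm38.p6) was matched for 5 of the 8 genes, in 6 windows: Otc, Ass1, Slc25a15, Slc25a13 and Nags. The 250 bases before the start site are shown 5′ to 3′ for Nags, which was higher at 48 h in both sets of barcodes compared below, for Slc25a15, which was lower in both, and for Otc, which differed little. Capitals mark GC boxes, the letters GGGCGG on either strand, and Otc had none of the motifs searched. The windows are chr11:102145263-102145512 (plus strand), chr8:22398622-22398871 (minus strand, the start site nearest the annotated gene start) and chrX:10252055-10252304 (plus strand).
Nags: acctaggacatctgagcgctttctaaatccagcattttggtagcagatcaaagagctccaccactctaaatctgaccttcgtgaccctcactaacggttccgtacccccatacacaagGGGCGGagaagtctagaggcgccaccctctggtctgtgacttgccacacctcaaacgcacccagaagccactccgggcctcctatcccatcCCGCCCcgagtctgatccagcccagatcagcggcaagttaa
Slc25a15: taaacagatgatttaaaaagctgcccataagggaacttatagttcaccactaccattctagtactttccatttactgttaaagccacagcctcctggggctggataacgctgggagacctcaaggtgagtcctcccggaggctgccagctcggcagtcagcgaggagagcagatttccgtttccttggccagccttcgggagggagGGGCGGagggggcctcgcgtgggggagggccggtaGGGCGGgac
Otc: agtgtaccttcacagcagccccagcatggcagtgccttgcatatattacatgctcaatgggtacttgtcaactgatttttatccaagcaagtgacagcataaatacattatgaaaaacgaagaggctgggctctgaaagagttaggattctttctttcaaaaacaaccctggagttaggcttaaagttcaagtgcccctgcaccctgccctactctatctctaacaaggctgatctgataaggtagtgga

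The Nags window held GC boxes that began 132 and 41 bases before the start, and that of Slc25a15 held them at 44 and 9 bases. The Ass1 window held a GC box at 63 bases and the Slc25a13 window a CCAAT box at 22 bases. A GC box was present in 32.7% of the 32851 promoters searched over the same length, a CCAAT box in 33.8% and a TATA box (TATAAA) in 12.4%. No member window held the C/EBP letters TTGCNNAA, the cAMP response element TGACGTCA or the HNF4 letters CAAAGTCCA, which were present in 9.56%, 1.55% and 0.384% of all promoters. Nags and Slc25a15, whose levels differed in opposite directions at 48 h, thus both carried the GC box.

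Mitochondrial transcripts divided the barcodes, the tags of single droplets, so the 8 genes were measured separately in barcodes with over 30% mitochondrial unique molecular identifiers (UMIs, each a captured transcript molecule) and in those with under 2%, called the high and low mitochondrial sets. The 0 h library held 3870 barcodes of the high set and 52587 of the low set among 59202, and the PHx48h library held 765 and 522 among 1586. Median depth was 1213.5 and 1413 non-mitochondrial UMIs per barcode in the high and low sets at 0 h and 4411 and 5271.5 at 48 h, so the 0 h values rest on more barcodes of lower depth. The count tables hold many more barcodes at 0 h, and more at 48 h, than the cells the study kept after its own filters. Those filters removed cells rich in mitochondrial transcripts, at a limit its methods do not give. The median mitochondrial share in the high set was 48.2% at 0 h and 57.0% at 48 h. The high set may therefore hold barcodes that the study left out, and which ones is not known here. Summed UMIs of the 8 genes in the low set at 0 h, at a common depth of 500 non-mitochondrial UMIs, varied between barcodes as counting alone would give (variance over mean 1.02), and lobule position was not resolved there even for Glul. Whether each of these barcodes holds 1 cell was not tested, so every low-set level and ratio below is one of barcodes and not of cells known to be single. Levels are UMIs per 1000000 non-mitochondrial UMIs of a set (CPM), and since 3′ UMI counts depend on the transcript they are compared here between sets and times, not between genes. The 10 hepatocyte markers were all detected in each of the 4 sets and summed to between 66530 and 123161 CPM, with the lowest sum in the low set at 48 h. The 45 measured markers of other liver cell types summed to between 238 and 383 CPM in the 4 sets, with 0 to 12 of them at 0, and to 3458 and 2983 CPM in the barcodes between 2% and 30% at 0 h and 48 h. T and NK cell markers were at 0 in both sets at 48 h. B cell markers stood at 1.04 and 1.94 CPM in the high and low sets at 0 h and at 27.6 and 42.4 CPM at 48 h. In the low set, stromal markers stood at 25.4 CPM at 0 h and 162 CPM at 48 h, and erythroid markers at 150 and 1.59 CPM. The part of such RNA in the ratios below was not tested. The 2 libraries shared 148 barcode sequences.

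Within the mitochondrion, the entry enzymes of the cycle separated by set. Cps1, the carbamoyl phosphate synthetase that opens the cycle, measured 1975 CPM (interval 1939 to 2011) in the high set at 0 h and 2576 CPM (2533 to 2621) at 48 h. In the low set it measured 4332 CPM (4317 to 4347) at 0 h and 1276 CPM (1236 to 1316) at 48 h, so that its highest and its lowest level both lay in the low set. The ratio of 48 h to 0 h was 1.30-fold in the high set (log2 0.38, interval 0.35 to 0.42), a direction that turned (log2 −0.20) when the median ratio of all genes was set to 0, and Cps1 was 3.40-fold lower in the low set (log2 −1.76, −1.81 to −1.72). The low-set fold and its opposite direction rest on the 52587 barcodes at 0 h described above, whose content of single cells was not tested. Barcodes between the limits held 3347 CPM at 0 h and 1976 CPM at 48 h, between the outer sets at both times.

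Otc, ornithine transcarbamylase, measured 158 CPM (148 to 168) in the high set at 0 h, 196 CPM (184 to 208) in the high set at 48 h, 402 CPM (398 to 407) in the low set at 0 h and 344 CPM (324 to 365) in the low set at 48 h. The low set stood above the high set at both times, and the differences between times were small beside the differences between sets. The log2 ratio of 48 h to 0 h was 0.31 (0.18 to 0.44) in the high set, which became −0.27 with the median of all genes at 0, and −0.22 (−0.31 to −0.14) in the low set. Nags, which makes the activator of Cps1, measured 26.3 CPM (22.3 to 30.8) in the high set and 29.3 CPM (28.1 to 30.5) in the low set at 0 h, levels whose intervals overlap. At 48 h it measured 91.7 CPM (83.6 to 100.4) in the high set and 68.9 CPM (60.0 to 78.7) in the low set, above both 0 h values. Nags was thus 3.49-fold higher at 48 h in the high set (interval 2.90 to 4.21) and 2.35-fold higher in the low set (2.04 to 2.71), on 152 and 468 UMIs in the high set and 2304 and 216 in the low set.

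The 2 carriers differed from each other. Slc25a15, the ornithine and citrulline exchanger, measured 339 CPM (324 to 354) in the high set and 299 CPM (295 to 303) in the low set at 0 h, and 261 CPM (247 to 276) and 136 CPM (123 to 149) at 48 h. It was the only member lower at 48 h in both sets, at log2 −0.38 (−0.48 to −0.27) in the high set and −1.14 in the low set, where it was 2.20-fold lower on 425 UMIs at 48 h. Slc25a13, the aspartate and glutamate exchanger, measured 87.4 CPM (79.9 to 95.4) in the high set at 0 h and 185 CPM (174 to 197) at 48 h, a 2.12-fold higher level. In the low set it measured 133 CPM (131 to 136) at 0 h and 130 CPM (118 to 144) at 48 h, and the log2 ratio of −0.03 had an interval of −0.18 to 0.11, which includes 0.

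In the cytosol, Arg1 stood out by the size of its difference. Arg1, the arginase that releases urea, measured 133 CPM (124 to 143) in the high set at 0 h and 548 CPM (528 to 569) at 48 h, a 4.12-fold higher level (interval 3.80 to 4.46). In the low set it measured 321 CPM (317 to 325) at 0 h and 868 CPM (836 to 902) at 48 h, a 2.71-fold higher level (2.60 to 2.82). Both 48 h levels lay above both 0 h levels. Barcodes with at least 1% of non-mitochondrial UMIs from markers of other liver cell types, a reference for free RNA chosen after seeing the data, held 249 CPM of Arg1 at 0 h and 241 CPM at 48 h. The high set thus lay below this reference at 0 h and above it at 48 h. Cps1 (2115 CPM) and Otc (200.1 CPM) were also higher in the reference than in the high set at 0 h, and Slc25a13 (96.2 CPM) had an overlapping interval. Free RNA was not subtracted, and its part in the high-set folds of these 4 genes was not tested.

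Ass1, which joins citrulline and aspartate, showed the same order at smaller size. It measured 878 CPM (854 to 902) and 1275 CPM (1267 to 1283) in the high and low sets at 0 h, and 1483 CPM (1450 to 1517) and 1999 CPM (1950 to 2049) at 48 h. The log2 ratios were 0.76 (0.71 to 0.81) and 0.65 (0.61 to 0.69). Asl, the lyase of the following step, went opposite ways in the 2 sets. It measured 403 CPM (387 to 420) in the high set at 0 h and 721 CPM (698 to 745) at 48 h, against 446 CPM (441 to 451) and 279 CPM (261 to 298) in the low set. Its log2 ratios were 0.84 (0.76 to 0.91) and −0.68 (−0.78 to −0.58), so the neighbouring enzymes Ass1 and Asl were both higher in the high set and diverged in the low set.

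**Figure D1:**
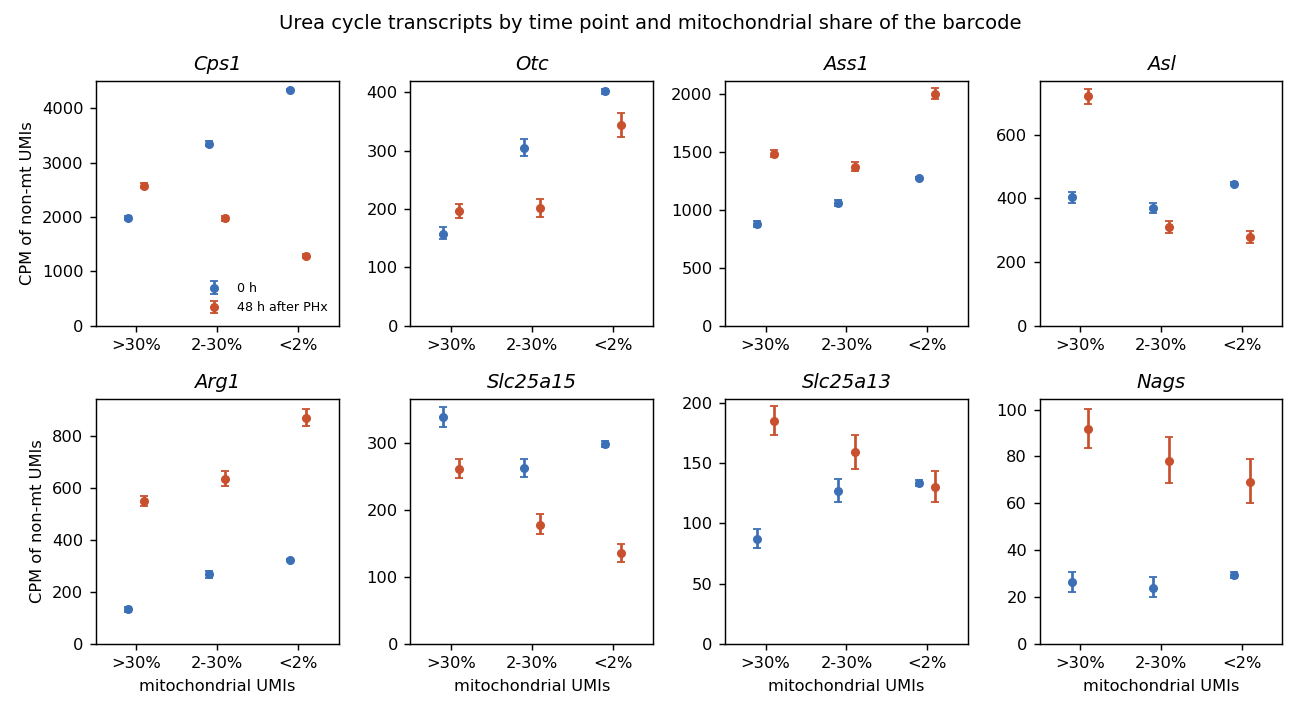
Level of each urea cycle gene in CPM of non-mitochondrial UMIs (vertical axis, linear from 0) by the mitochondrial share of the barcode (horizontal axis), at 0 h (blue) and 48 h after PHx (red). Points are pooled levels of 1 library each and bars are exact Poisson 95% intervals; Arg1 lies at 548 to 868 CPM at 48 h and at 133 to 321 CPM at 0 h, whereas the Cps1 points cross.

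Across the 8 genes, the high set held 7 higher and 1 lower at 48 h, of which Arg1, Nags and Slc25a13 were at least 2-fold higher and none was 2-fold lower. Of all 2676 genes compared in that set, 1758 were higher and 918 lower. At least 2-fold higher were 35.8% and at least 2-fold lower 9.49%, so 3 of 8 is near the background. With the median of all genes set to 0, the members split into 5 higher and 3 lower, and 18.4% of all genes were at least 2-fold higher and 22.9% lower. The median log2 ratio of the members was 0.80 and that of all genes 0.58. The low set held 3 higher and 5 lower members, the latter with Slc25a13, whose interval included 0. All 2556 genes split there into 1431 higher and 1125 lower. Arg1 and Nags were at least 2-fold higher and Cps1 and Slc25a15 at least 2-fold lower. The background was 34.4% at least 2-fold higher and 25.5% lower. The same centring left the members at 3 higher and 5 lower, with Arg1 alone at least 2-fold higher and Asl joining Cps1 and Slc25a15 among those 2-fold lower, and all genes at 25.5% higher and 32.5% lower. There the members had a median of −0.13 and all genes 0.35. Summed over the 8 genes, the cycle took 4000 CPM at 0 h and 6063 CPM at 48 h in the high set, and 7237 CPM and 5101 CPM in the low set.

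**Figure D2:**
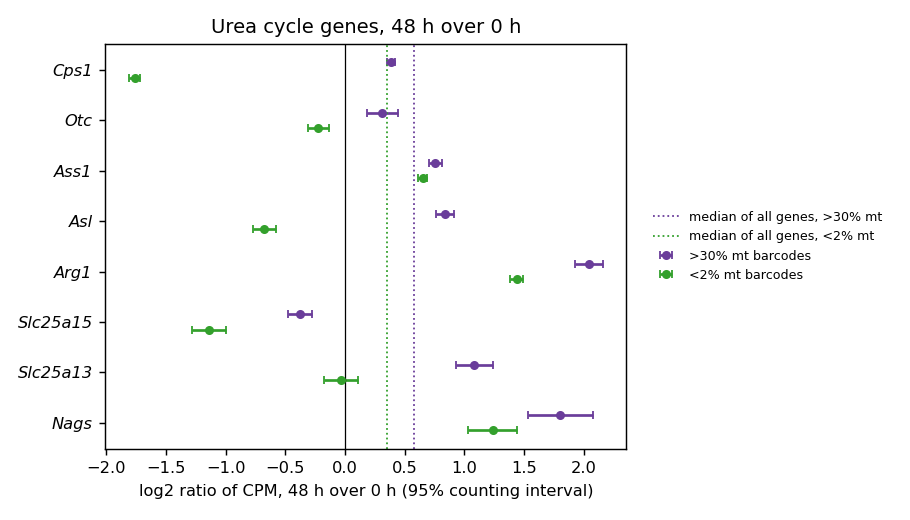
Log2 ratio of CPM at 48 h over 0 h (horizontal axis) for each urea cycle gene in barcodes with over 30% (purple) and under 2% (green) mitochondrial UMIs, with 95% counting intervals as bars and the medians of all genes as dotted lines at 0.58 and 0.35. Cps1, Asl and Otc lie on opposite sides of 0 in the 2 sets, and Arg1 and Nags lie right of both medians in both.

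The sets themselves differed in their urea cycle content, and the difference turned between time points. At 0 h the high set held less than the low set for 7 of the 8 genes, with a median log2 ratio of high over low of −0.57 over the members and −0.29 over 2199 genes. The low set was 2.55-fold higher for Otc, 2.41-fold for Arg1 and 2.19-fold for Cps1, while Slc25a15 was 1.13-fold higher in the high set. For Nags the interval of this log2 ratio, −0.40 to 0.08, included 0. At 48 h the member median was 0.46, against 0.09 over 2747 genes, with Asl 2.58-fold, Cps1 2.02-fold and Slc25a15 1.93-fold higher in the high set. Otc, Ass1 and Arg1 were higher in the low set at both times. Opposite directions of the 48 h to 0 h ratio in the 2 sets, as for Cps1, Otc and Asl, had counting intervals off 0 in both sets for these 3 of the 8, and for 12.5% of the 2202 genes at 50 CPM or more in both. By sign alone, Slc25a13 made it 4 of 8, against 18.9% of those genes.

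To place the cycle among its neighbours, genes that feed it, compete with it or draw on its intermediates were counted, each list with the genes that had at least 20 UMIs. Of 11 nitrogen supply genes, 4 were at least 2-fold higher and 1 lower at 48 h in the high set, and 1 and 4 in the low set, with median log2 ratios of 0.52 and −0.02. All genes stood at 35.8% higher and 9.49% lower in the high set and 34.4% and 25.5% in the low set. The high-set counts were near these shares, which require 50 CPM. Of the 11 genes, 8 reached it in the high set and 9 in the low set. Glud1, glutamate dehydrogenase, which frees ammonia in mitochondria, went from 203 to 428 CPM in the high set and from 415 to 408 CPM in the low set. Got2, the mitochondrial aspartate aminotransferase, was higher in both sets by log2 1.19 and 0.55. Gpt and Gpt2, the cytosolic and mitochondrial alanine aminotransferases, gave log2 ratios of −0.53 and 1.49 in the high set and −2.60 and −0.28 in the low set. The glutamine and amino acid transporters Slc38a3 and Slc38a4 were lower in both sets, Slc38a3 by log2 −1.13 and −1.27 and Slc38a4 by −0.75 and −1.80. Gls2, the liver glutaminase, was at 0.35 in the high set and −1.02 in the low set. Slc25a12, the paralogue of citrin, was at 1.68 and 0.70 on low counts, and Car5a, the mitochondrial carbonic anhydrase that supplies bicarbonate, at 0.52 and 1.10.

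The perivenous ammonia users were lower for 3 of 4 genes in both sets, with median log2 ratios of −1.33 and −0.85. Among all genes, 918 of 2676 were lower in the high set and 1125 of 2556 in the low set. At least 2-fold lower were 3 of the 4 in the high set, against 9.49% of all genes. In the low set it was 1 of the 4, against 25.5%, and 3 of the 4 reached the 50 CPM that this share requires. Glul, glutamine synthetase, went from 374 to 164 CPM in the high set and from 272 to 159 CPM in the low set. The glutamate transporter Slc1a2 was at log2 −1.46 and −1.29 and the ammonium transporter Rhbg at −1.79 and −0.92. Oat, ornithine aminotransferase, which removes ornithine, was higher at 48 h, by 0.76 and 0.43.

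Genes that use arginine and ornithine outside the cycle gave the highest list median in the low set. Of 8 counted, 6 were at least 2-fold higher in the high set and 5 in the low set, none was 2-fold lower, and the medians were 1.52 and 1.18, against 35.8% and 34.4% of all genes at least 2-fold higher. Only 5 of the 8 reached the 50 CPM that those shares require. Spermidine synthase Srm went from 14.0 to 61.3 CPM in the high set and from 16.1 to 61.9 CPM in the low set. Odc1, which makes putrescine from ornithine, went from 42.1 to 129 CPM and from 43.7 to 64.4 CPM, and its regulator antizyme Oaz1 was at log2 1.06 and 1.12. Agmat was at 1.41 and 1.30, Gatm at 1.68 and 1.24 and Sms, spermine synthase, at 1.62 and 1.47, the last 2 on few UMIs. Gatm, counted among those 2-fold higher, went from 2.08 to 6.66 CPM in the high set and from 1.49 to 3.51 CPM in the low set. The reference barcodes rich in markers of other cell types held 213 CPM of Gatm at 0 h and 388 CPM at 48 h. Whether the Gatm UMIs of the 2 sets come from hepatocytes was not tested. Arg2 and Nos2, which also use arginine, did not reach the count minimum.

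Cad, whose own carbamoyl phosphate goes into pyrimidines, was at log2 1.90 (0.98 to 2.92) in the high set and −1.33 (−2.65 to −0.28) in the low set, at under 10 CPM throughout, and Umps, which completes uridine monophosphate, was at 1.83 and 0.89. Of 7 regulators of amino acid metabolism, 2 were at least 2-fold higher in the high set, against 35.8% of all genes. In the low set 3 were at least 2-fold lower, against 25.5%. Only 5 of the 7 reached the 50 CPM that those shares require. Hnf4a was at 1.43 in the high set and 0.56 in the low set. Ppargc1a was at 1.23 and −0.29, the latter on 13 UMIs at 48 h with an interval (−1.22 to 0.50) that included 0. The 3 lower in the low set were Cebpb (0.26 and −1.53), the glucocorticoid receptor Nr3c1 (0.44 and −1.55) and the glucagon receptor Gcgr (−0.84 and −1.34). The remaining regulators passed 2-fold in neither set. These ratios share the libraries of the member ratios and are not independent of them.

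**Figure D3:**
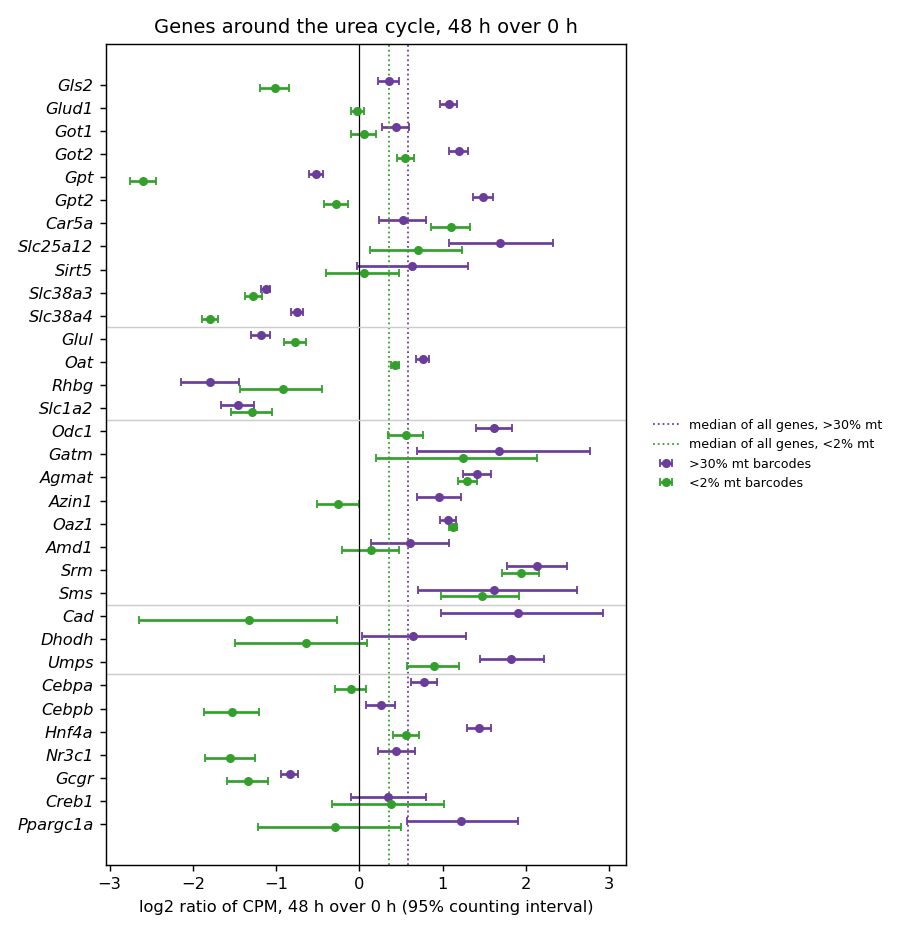
Log2 ratio of CPM at 48 h over 0 h (horizontal axis) for genes around the cycle in barcodes with over 30% (purple) and under 2% (green) mitochondrial UMIs, with 95% counting intervals. Grey lines part nitrogen supply, perivenous ammonia use, arginine and ornithine use, pyrimidine synthesis and regulators from top to bottom; the arginine and ornithine genes lie right of 0 except Azin1 in the low set.

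To relate the cycle to lobule position, each barcode received a perivenous share, the UMIs of 18 perivenous genes divided by those of the same genes and 13 periportal genes, none of them a member. Barcodes with at least 5 such UMIs were ranked and divided into 5 equal bins within each set. The share from Cyp2e1 and Cyp2f2 alone correlated across barcodes with the share from the remaining index genes, Spearman rho 0.66 (n = 3718) in the high set at 0 h and 0.72 (n = 748) at 48 h. In the low sets rho was 0.004 (n = 52587) and 0.21 (n = 521), as a description, since both shares come from the same barcodes. Genes kept out of the index followed the same division. In the high set Glul was 23.8-fold higher in the most perivenous bin at 0 h and 13.5-fold at 48 h, and Gls2, a periportal enzyme, was 4.18-fold and 6.78-fold higher in the most periportal bin. The low set at 0 h gave log2 ratios of periportal over perivenous of −0.07 for Glul and −0.02 for Gls2, so position was not resolved there.

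In the high set at 0 h the members differed little between the ends of this axis. The median log2 ratio of periportal over perivenous was 0.07, against −0.28 for all genes, and none of the 8 was 1.5-fold higher in the periportal bin, which 6.12% of 1797 genes were. In the perivenous direction Slc25a13 (1.53-fold) and Nags (1.57-fold) passed 1.5-fold, as did 25.6% of those genes. Cps1 read 1864, 1899, 2252, 2188 and 1653 CPM from the most periportal to the most perivenous bin, so its levels were higher in the middle than at either end. Its end-to-end log2 ratio was 0.17 (0.08 to 0.27), and that of Ass1 was 0.20 (0.06 to 0.33). With 3 bins in place of 5 these became 0.03 and −0.06 and the member median −0.09, so a periportal order of the members at 0 h did not hold across bin widths. The intervals of Otc, Asl, Arg1 and Nags included 0. Slc25a15 was higher in the perivenous bin, 427 against 293 CPM (log2 −0.55, −0.76 to −0.33), and so was Slc25a13, 113 against 73.6 CPM (−0.61, −1.04 to −0.19). A division by Glul UMIs, given under other observations, put Cps1 and Ass1 lower in Glul-rich barcodes at 0 h, at log2 −0.48 and −0.58.

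At 48 h the enzymes of the high set were higher towards the periportal end. The member median was 0.58, against −0.14 for all genes, and 4 of 8 were 1.5-fold higher in the periportal bin, against 6.01% of 2447 genes. None of the 8 was 1.5-fold higher in the perivenous bin, against 12.3% of the genes. With 3 bins in place of 5 none of the 4 kept 1.5-fold, at log2 0.41 for Cps1, 0.52 for Ass1, 0.57 for Asl and 0.52 for Arg1, although all 4 remained higher towards the periportal end. Cps1 read 2833, 2691, 2706, 2561 and 1768 CPM across the bins, highest in the most periportal one and lowest in the most perivenous one. The end-to-end log2 ratios were 0.68 for Cps1 (0.59 to 0.77), 0.54 for Otc (0.24 to 0.85), 0.71 for Ass1 (0.59 to 0.83), 0.62 for Asl (0.45 to 0.79) and 0.77 for Arg1 (0.58 to 0.97). The carriers and Nags did not share this order. Slc25a13 was at −0.01 (−0.31 to 0.30), Slc25a15 at −0.26 (−0.51 to −0.01) and Nags at −0.44, with an upper limit at 0. Median depth fell from 6574 non-mitochondrial UMIs in the most periportal bin to 3839 in the most perivenous one at 48 h, against 1242.5 and 1145 at 0 h, and its part in these ratios was not tested.

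The ratio of 48 h to 0 h was therefore also taken bin by bin in the high set, where bins are ranks within each library. The median perivenous share of the most periportal, middle and most perivenous bins was 22.1%, 57.1% and 97.4% at 0 h. At 48 h it was 18.5%, 44.4% and 89.6%, so equal ranks need not be equal lobule positions. Cps1 was 1.52-fold higher at 48 h in the most periportal bin (1.44 to 1.60) and 1.07-fold in the most perivenous one (0.99 to 1.15). Arg1 was 4.70-fold higher (3.97 to 5.60) at the periportal end and 3.37-fold (2.68 to 4.27) at the perivenous end, where Arg1 went from 111 to 376 CPM. Ass1 gave 1.84-fold and 1.29-fold, Asl 1.86-fold and 1.32-fold, and Slc25a13 2.47-fold and 1.63-fold. Nags was higher in every bin, between 2.75-fold and 4.10-fold, and Slc25a15 was lower in every bin, between 0.67 and 0.94 of its 0 h level, with an interval that included 1 in the second bin. The sum of the 8 genes was 1.72-fold higher at the periportal end (1.66 to 1.78) and 1.20-fold at the perivenous end (1.15 to 1.26). Over the whole high set the log2 ratio of this sum was 0.60, near the median of all genes, 0.58. No ratio of all genes was taken bin by bin, so these folds are not set against a background.

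**Figure D4:**
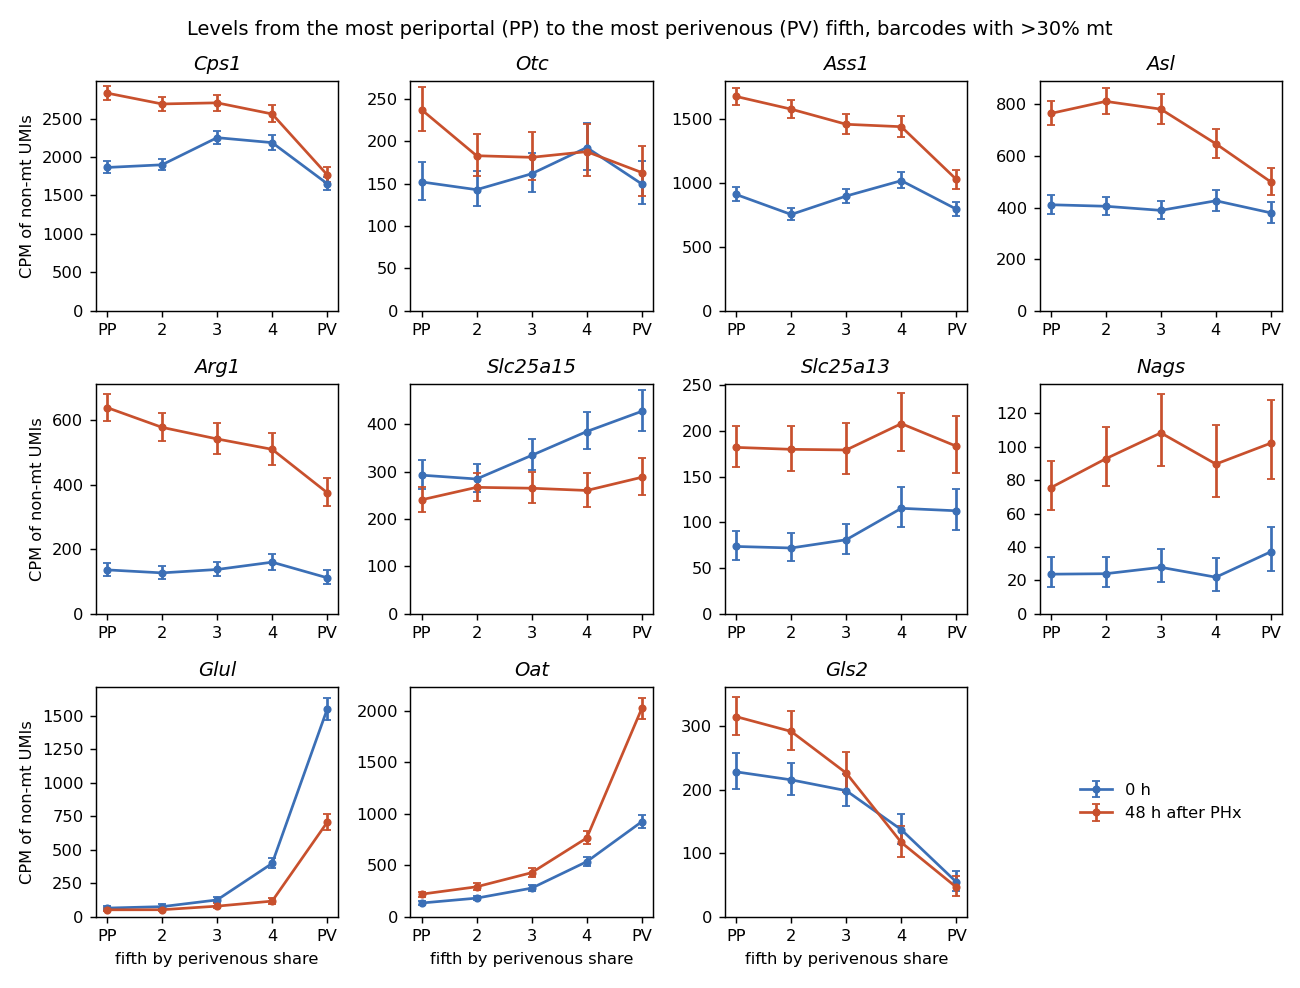
CPM of non-mitochondrial UMIs (vertical axes, linear from 0) of the 8 urea cycle genes and of Glul, Oat and Gls2 in 5 bins of barcodes from the most periportal (PP) to the most perivenous (PV), in barcodes with over 30% mitochondrial UMIs at 0 h (blue) and 48 h (red), with exact Poisson 95% intervals. Cps1 goes from 2833 to 1768 CPM along the axis at 48 h and from 1864 to 1653 CPM at 0 h, while Glul is highest in the PV bin at both times.

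The low set gave no comparable axis. At 0 h all 8 members had log2 ratios between −0.08 and 0.06, and 0 of 8 reached 1.5-fold in either direction, against 0.105% of 1912 genes towards the periportal end and 0% towards the perivenous end. At 48 h the member median was 0.20, again with none at 1.5-fold. Of 2051 genes, 1.71% passed it towards the periportal and 3.17% towards the perivenous end. Of the genes kept out of the index, Gls2 was at 1.30 and Oat at −1.39. Glul was at −0.32 (−0.78 to 0.13), an interval that includes 0. Arg1 (0.58), Otc (0.55) and Asl (0.52) were higher in the periportal bin, and Cps1 was lower there (−0.24, −0.39 to −0.09), opposite in sign to the high set at the same time. The median perivenous share at 48 h was 52.9% and 80.6% in the end bins of the low set, against 18.5% and 89.6% in the high set. The end bins of the 2 sets thus differ in position by the index itself, and a reversed lobule order of Cps1 is not shown.

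**Figure D5:**
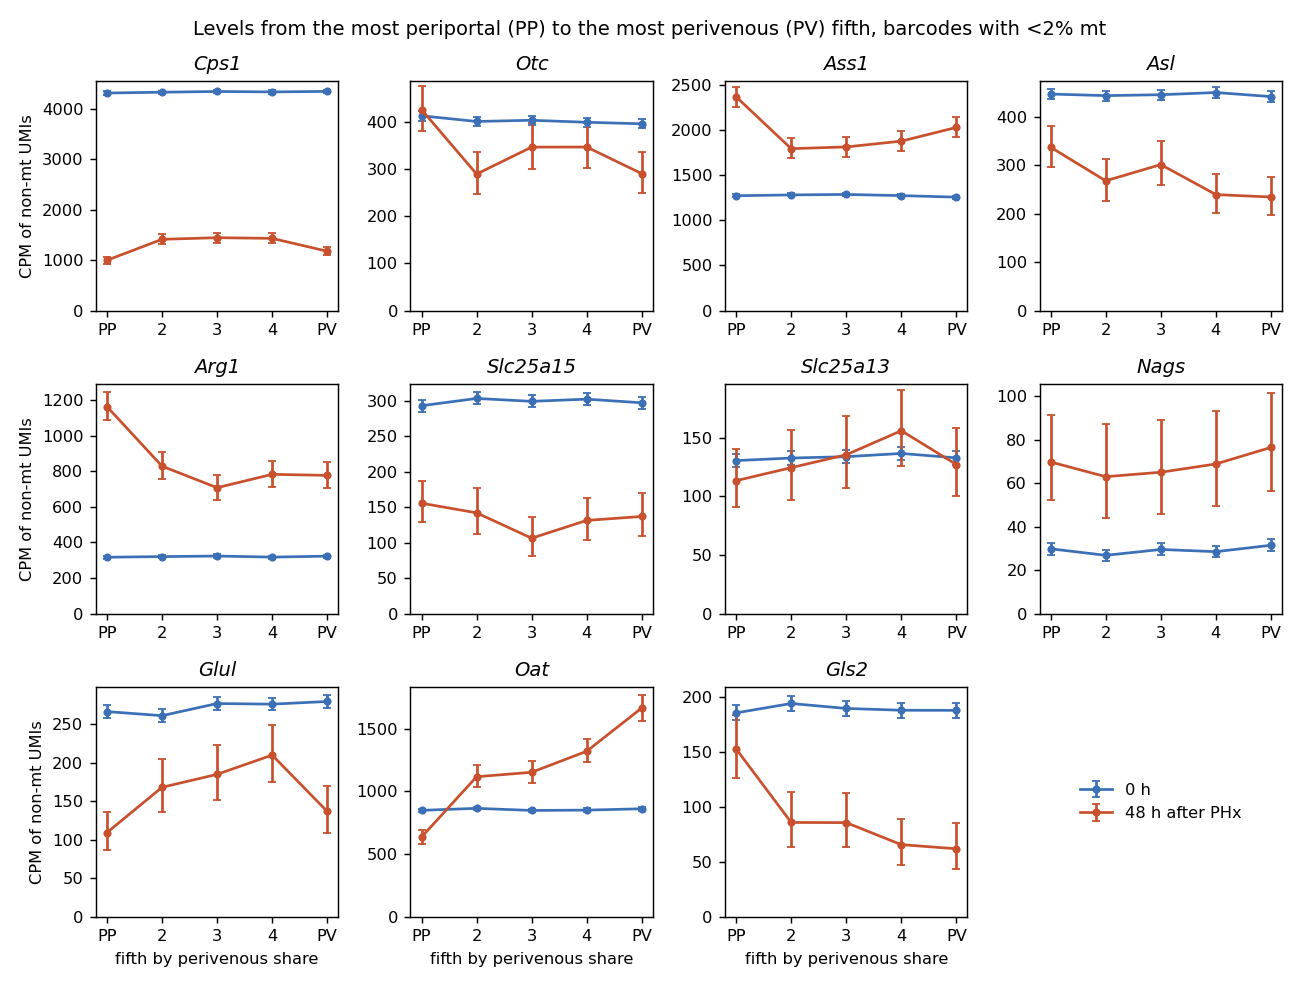
The same levels in barcodes with under 2% mitochondrial UMIs, in CPM of non-mitochondrial UMIs with exact Poisson 95% intervals, in 5 bins from the most periportal (PP) to the most perivenous (PV). The 0 h lines (blue) are flat for all 11 genes, with member log2 ratios of −0.08 to 0.06 between the ends, and the 48 h lines (red) slope most for Oat and Gls2.

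Variation among barcodes was examined after drawing each down to 500 non-mitochondrial UMIs, which left out 75 barcodes of the high set at 0 h. At this depth a Cps1 UMI was present in 60.2% and 66.9% of high-set barcodes at 0 h and 48 h and in 88.2% and 49.6% of low-set barcodes, and an Arg1 UMI in 6.56%, 22.0%, 14.7% and 29.7%. Before thinning, the Cps1 shares were 85.0%, 99.0%, 99.8% and 99.8%. The reference barcodes rich in markers of other cell types held a Cps1 UMI in 65.6% at 0 h (n = 346, median 2752 non-mitochondrial UMIs) and 28.8% at 48 h (n = 66, median 6187), and an Arg1 UMI in 12.1% at both times. In the high set at 0 h the shares for Cps1, Otc, Arg1 and Slc25a13 were at or below this reference. They are therefore not read as the share of cells that express the gene. The reference held 22881 CPM of Alb at 0 h, against 44963 CPM in the high set. Whether its urea cycle UMIs are free RNA or come from hepatocytes was not tested. The variance of UMIs per barcode divided by the mean lay between 0.96 and 1.28 over the 8 genes and 4 sets. Pure counting gives 1, and the highest value was that of Cps1 in the high set at 48 h. The means ran from 0.0139 UMIs (Nags) to 2.17 UMIs (Cps1), both in the low set at 0 h. At means far below 1 this ratio stays near 1 even where barcodes differ, so it does not show even expression.

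The genes whose level followed that of the members most closely were sought over 20 points, the 5 bins of each of the 4 sets, among 286 genes with at least 200 CPM in every set. The 5 with the highest Pearson correlation to the mean log2 level of the members were Atp5a1 (r = 0.93) and Atp5g3 (0.92), subunits of the mitochondrial ATP synthase, Adh1 (0.92), an alcohol dehydrogenase, Acaa2 (0.89), a thiolase of fatty acid oxidation, and the membrane protein gene Tmem176b (0.88). The points share 2 libraries, so these are descriptions. The members themselves followed the mean of the other members unevenly, with r from 0.85 for Slc25a13 and 0.59 for Ass1 to 0.05 for Cps1 and −0.45 for Slc25a15.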

How the data were processed

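Urea cycle transcripts were measured in 2 scRNA-Seq libraries of isolated mouse hepatocytes, 1 of undamaged liver and 1 of liver 48 h after PHx. The authors ran Cell Ranger (version not given in the sources used here; the submitters' processing notes list mm10) and deposited whole-number UMI counts per gene and barcode, without normalization; their methods name filters on mitochondrial content and doublets without limits, and no doublet caller was run here. Groups came from the time point in the labels. UMIs of 13 mitochondrial genes defined the sets (over 30% and under 2%), and counts were summed per set and given per 1000000 non-mitochondrial UMIs (CPM), with exact Poisson 95% intervals; ratios had exact conditional binomial 95% intervals. Intervals cover counting error only, and no test was run. Genes compared between times had at least 50 CPM in either library, and a 2-fold ratio counted as past the limit. Named genes were the 8 members, context genes past 2-fold in either set on at least 20 UMIs, Glul, Oat and Gls2, and the 5 most alike in profile; Azin1 was named after its values were seen. The members, lists and zone genes were chosen with earlier results of these data known. Computations used Python 3.11.15, numpy 2.4.6, scipy 1.17.1 and pandas 2.3.3 and were tested on simulated data. Alternatives were other denominators, mitochondrial limits, barcode filters and zone bins.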

Additional observations from a re-analysis of the deposited data

Results flagged for a closer look

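Cps1, Otc and Asl were higher at 48 h in barcodes with over 30% mitochondrial UMIs and lower in those with under 2%, with counting intervals off 0 in both. The log2 ratio of the low set minus that of the high set was −2.15 for Cps1, −1.52 for Asl and −0.54 for Otc. The low set at 0 h holds barcodes not tested for being single cells. The median of this difference over 2202 genes was −0.48, so that of Otc was near it. With 1 library per time point the difference was not tested. When the median ratio of all genes was set to 0, Cps1 and Otc were lower at 48 h in both sets, and Asl kept opposite directions at 0.26 and −1.03.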

How the results depend on the processing

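The median log2 ratio of 48 h to 0 h over the 8 genes kept its direction in each set under the 8 alternatives run. In the high set the median log2 ratio of the 8 genes, 0.80, became 0.56 without the 20 most abundant genes in the denominator, 0.22 with the median of all genes at 0, 0.54 with all UMIs in the denominator, 0.70 as a mean over single barcodes and 0.87 in the deeper barcodes. In the low set, −0.13 became −0.35 without the 20 most abundant genes and −0.48 with the median of all genes at 0. These scalings moved the median of all genes from 0.58 to 0.31 without abundant genes and 0.06 with all UMIs in the high set, and from 0.35 to −0.07 without abundant genes in the low set. Cps1 and Otc in the high set changed direction only with the median of all genes at 0 (−0.20 and −0.27), and the other members kept theirs in 8 of 8 alternatives. Arg1 stayed at least 2-fold higher in 8 of 8 in both sets and Nags in 8 of 8 in the high set and 7 of 8 in the low set, whereas Slc25a13 did so in 5 of 8 in the high set. The share of genes at least 2-fold lower in the high set fell from 9.49% to 5.62% at a minimum of 10 CPM. The zone median at 0 h in the high set turned from 0.07 to −0.09 between the outer of 3 bins. The zone median at 48 h in the high set was 0.34 between the outer of 3 bins and, chosen after seeing the data, 0.74 between the outer of 10; the members 1.5-fold higher at the periportal end went from 4 to 0 and 5. That count in the low set at 48 h went from 0 to 2 without Cyp2e1 and Cyp2f2 in the index and to 3 between the outer of 10 bins. No paired analysis was possible because each time point has 1 library, and for the same reason no replicate could be left out. Depth limits Nags, Gatm, Sms and Cad, which rest on few UMIs.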

Other observations

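Barcodes with at least 3 Glul UMIs, a marker of the cells next to the central vein, were compared with barcodes without any, among those with at least 1000 non-mitochondrial UMIs, a division chosen after seeing the data. In the high set at 0 h, 201 such barcodes held 1469 CPM of Cps1 against 2054 CPM in 1856 without Glul, and 582 against 868 CPM of Ass1. Slc25a13 was higher in the Glul-rich barcodes, 128 against 83.8 CPM. At 48 h, 49 such barcodes held 1589 CPM of Cps1 against 2672 CPM in 475, 1109 against 1509 CPM of Ass1, and 361 against 545 CPM of Arg1. As log2 ratios of Glul-rich over Glul-free, Cps1 was at −0.48 (−0.61 to −0.36) at 0 h and −0.75 (−0.88 to −0.63) at 48 h. Ass1 was at −0.58 (−0.78 to −0.38) and −0.45 (−0.60 to −0.30), so its difference was not larger at 48 h. Arg1 was at −0.42 (−0.92 to 0.05) and −0.59 (−0.87 to −0.33). In the low set Cps1 stood at 4106 against 4348 CPM at 0 h and 1326 against 1194 CPM at 48 h. The interval of the 48 h log2 ratio, −0.03 to 0.33, included 0. Perivenous Cyp2e1 was not higher in the Glul-rich low-set barcodes at 0 h, 5569 against 5783 CPM. At 48 h its log2 ratio was 0.21 (−0.02 to 0.44). Oat was higher at 0 h, 1151 against 849 CPM, and nearly equal at 48 h, 1114 against 1092 CPM. Whether Glul marks lobule position in the low set was not tested.

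Barcodes with at least 1% of UMIs from markers of other cell types, also chosen after seeing the data, held 3867 CPM of the 8 genes summed at 0 h and 1395 CPM at 48 h. Cps1 stood at 2115 and 452 CPM in them, Ass1 at 724 and 377 CPM, Arg1 at 249 and 241 CPM and Nags at 11.7 and 19.9 CPM. Of these barcodes 292 of 346 at 0 h and 62 of 66 at 48 h had between 2% and 30% mitochondrial UMIs.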
